A study of Homo sapiens with 8 samples.

Results

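The de novo synthesis of purines and pyrimidines was examined through the messages of 10 enzymes, taken by gene symbol from a table of 17166 genes in HCT116, a human colorectal cancer cell line. They are PPAT, GART, PFAS, PAICS and ATIC of the purine route, IMPDH2 of the branch to GMP, CAD, DHODH and UMPS of the pyrimidine route, and CTPS1, which makes CTP. Each symbol matched 1 row, whose Entrez identifier matched that of the gene in RefSeq. The cells were HCT116 transduced with 1 of 2 short hairpin RNAs against HOXB8, a homeobox transcription factor gene. Doxycycline (dox) switches the hairpin on. The 4 groups were the sh1 line without dox, the sh1 line with 1 ug/ml dox for 72 hours, the sh2 line without dox and the sh2 line with the same dose and time. The table names the other hairpin sh3 where the labels name it sh2, and its columns were taken as sh2 by elimination. Each group had 2 libraries, 8 in all, which the study's design calls independent repeats; whether they came from separate cultures is not said, so p-values measure the spread between these libraries. All groups, controls included, carried a HOXB8 hairpin. Both hairpins were stably transduced, and whether a line is a clone or a pool is not said. No library had dox without a HOXB8 hairpin, so the drug and the lower HOXB8 cannot be told apart.

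Purine synthesis builds the ring stepwise on a ribose phosphate, using glutamine, glycine, aspartate, formyl groups from folate and carbon dioxide. PPAT commits ribose phosphate to the route, the trifunctional enzyme GART, then PFAS and the bifunctional PAICS extend the ring, and ATIC closes it to IMP, which IMPDH2 turns toward guanine nucleotides. Pyrimidine synthesis makes its ring first: CAD carries out the opening steps, DHODH oxidizes the ring in the mitochondrion, UMPS adds ribose phosphate to give UMP, and CTPS1 aminates UTP to CTP. Proliferating cells rely on these routes for RNA and DNA precursors, and several of the genes are textbook targets of MYC.

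Promoter windows from RefSeq (build GRCh38.p14, from 250 bases before to 50 after an annotated start) were found for 9 of the 10 genes, all but IMPDH2. The 5 windows below are shown because they hold 1 of the 2 motifs searched, which are in capitals: the E-box CACGTG, a site type bound by MYC and related factors, and the cyclic AMP response element TGACGTCA, bound by CREB and ATF factors. Both read the same on both strands, and they do not overlap each other. They lie at chr4:56435566-56435865 on the minus strand for PPAT, chr4:56435502-56435801 on the plus strand for PAICS, chr2:215311809-215312108 on the plus strand for ATIC, chr16:72008494-72008793 on the plus strand for DHODH and chr3:124730202-124730501 on the plus strand for UMPS.
PPAT: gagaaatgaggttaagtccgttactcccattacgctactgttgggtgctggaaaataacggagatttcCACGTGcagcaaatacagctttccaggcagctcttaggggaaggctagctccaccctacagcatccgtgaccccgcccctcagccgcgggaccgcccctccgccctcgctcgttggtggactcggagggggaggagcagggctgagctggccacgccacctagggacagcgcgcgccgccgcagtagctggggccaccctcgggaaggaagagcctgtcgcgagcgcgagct
PAICS: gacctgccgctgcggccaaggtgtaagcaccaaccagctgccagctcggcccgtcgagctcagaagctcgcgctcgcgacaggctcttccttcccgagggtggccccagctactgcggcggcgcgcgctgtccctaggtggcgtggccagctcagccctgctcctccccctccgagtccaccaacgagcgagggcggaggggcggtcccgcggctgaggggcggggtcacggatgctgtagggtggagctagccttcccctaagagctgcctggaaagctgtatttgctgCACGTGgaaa
ATIC: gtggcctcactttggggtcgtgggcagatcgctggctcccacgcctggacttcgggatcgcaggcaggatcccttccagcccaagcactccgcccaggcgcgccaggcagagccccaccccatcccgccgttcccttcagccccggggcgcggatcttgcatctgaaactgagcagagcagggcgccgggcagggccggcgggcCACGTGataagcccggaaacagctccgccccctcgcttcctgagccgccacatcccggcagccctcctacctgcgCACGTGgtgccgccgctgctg
DHODH: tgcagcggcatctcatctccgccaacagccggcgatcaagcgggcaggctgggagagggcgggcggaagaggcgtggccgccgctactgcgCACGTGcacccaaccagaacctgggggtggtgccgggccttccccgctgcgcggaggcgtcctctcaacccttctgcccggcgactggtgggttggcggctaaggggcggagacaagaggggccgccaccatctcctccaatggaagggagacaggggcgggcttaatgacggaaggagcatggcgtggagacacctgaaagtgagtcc
UMPS: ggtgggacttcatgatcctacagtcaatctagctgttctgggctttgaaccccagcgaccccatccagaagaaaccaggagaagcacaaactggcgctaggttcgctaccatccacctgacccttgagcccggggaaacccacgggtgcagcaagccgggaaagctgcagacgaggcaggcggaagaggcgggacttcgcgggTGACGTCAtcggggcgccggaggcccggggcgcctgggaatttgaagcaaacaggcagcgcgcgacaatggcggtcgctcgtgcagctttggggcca

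PPAT and PAICS are neighbours that are read in opposite directions, and the 2 windows share 236 bases, which were identical on opposite strands, so they hold the same E-box. It starts 182 bases before the PPAT start and 40 bases after this PAICS start. PAICS has 3 annotated windows, of which this is the one with the motif. The E-boxes of ATIC start 46 bases before and 29 bases after its start, that of DHODH 159 bases before, and the response element of UMPS 47 bases before. An E-box was thus in a window of 4 of 9 genes, against 8.77% of 27305 genes with a window. PPAT and PAICS are 2 of these 4, though they hold the same E-box. By window, an E-box was in 4 of the 14 windows of these genes, against 7.2% of 34796 different windows of all genes. The response element was in a window of 1 of 9 genes, against 2.25%. These are letter matches and no binding was measured.

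The values are FPKM, a unit that corrects fragment numbers for how long a transcript is and how many fragments a library holds, so levels of different genes can be compared. The libraries summed to between 440063 and 446889 FPKM over all genes, and read depth is not known. Of 9 colorectal epithelial markers 8 averaged at least 1 FPKM, with EPCAM between 187 and 217 FPKM and VIL1, a brush border gene, at or below 0.04 FPKM. The summed level of these markers was 2883 to 3519 FPKM without dox and 2825 to 2962 FPKM with it; its part in the results was not tested. Of 4 fibroblast markers in the table, 1 averaged at least 1 FPKM, COL1A1 at 6.28 to 8.38 FPKM, while COL1A2 and COL3A1 were at or below 0.01 FPKM. Of 6 immune markers 3 did, CD68 at 5.27 to 8.4 FPKM, LYZ at 4.36 to 5.91 FPKM and PTPRC at 1.09 to 1.64 FPKM, while CD14 was at or below 0.1 FPKM. Of 3 endothelial markers 0 did, and CDH5 was at or below 0.01 FPKM. The summed immune markers were at 12 to 14.9 FPKM without dox and 14 to 15 FPKM with it, and the fibroblast markers at 6.62 to 8.04 and 6.36 to 8.46 FPKM; their part in the results was not tested. HOXB8 (Entrez identifier 3218) read 20.8 and 20.4 FPKM in sh1 without dox, 6.54 and 5.74 with it, 17.3 and 18.4 in sh2 without dox, and 7.39 and 6.41 with it. It was lower in all dox libraries, as the labels say (log2 change -1.43, SE 0.05, limma adjusted p = 6.86e-07). In cultures, fewer cells with a message and less message per cell cannot be told apart.

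Without dox the 10 enzymes covered a wide range of levels. IMPDH2 was the most abundant at 237 ± 11.1 FPKM, then PAICS at 159 ± 6.41 FPKM and GART at 77.9 ± 3.9 FPKM (mean ± SD, n = 4 no-dox libraries here and in the rest of this order). ATIC had 56.9 ± 1.68 FPKM, CAD 38.5 ± 2 FPKM, CTPS1 35.9 ± 2.3 FPKM and PPAT 31.4 ± 1.64 FPKM. PFAS had 18.1 ± 1.97 FPKM, DHODH 12.4 ± 0.572 FPKM and UMPS 9.64 ± 0.578 FPKM. Over all 8 libraries each gene lay wholly above the next in this order, except that CAD overlapped CTPS1 and CTPS1 overlapped PPAT. The order of the routes' steps was not the order of the levels: PPAT, at the head of the purine route, had about the level of CTPS1, and PAICS from the same locus had 5.01 to 5.22 times the FPKM of PPAT in the individual libraries.

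**Figure D1:**
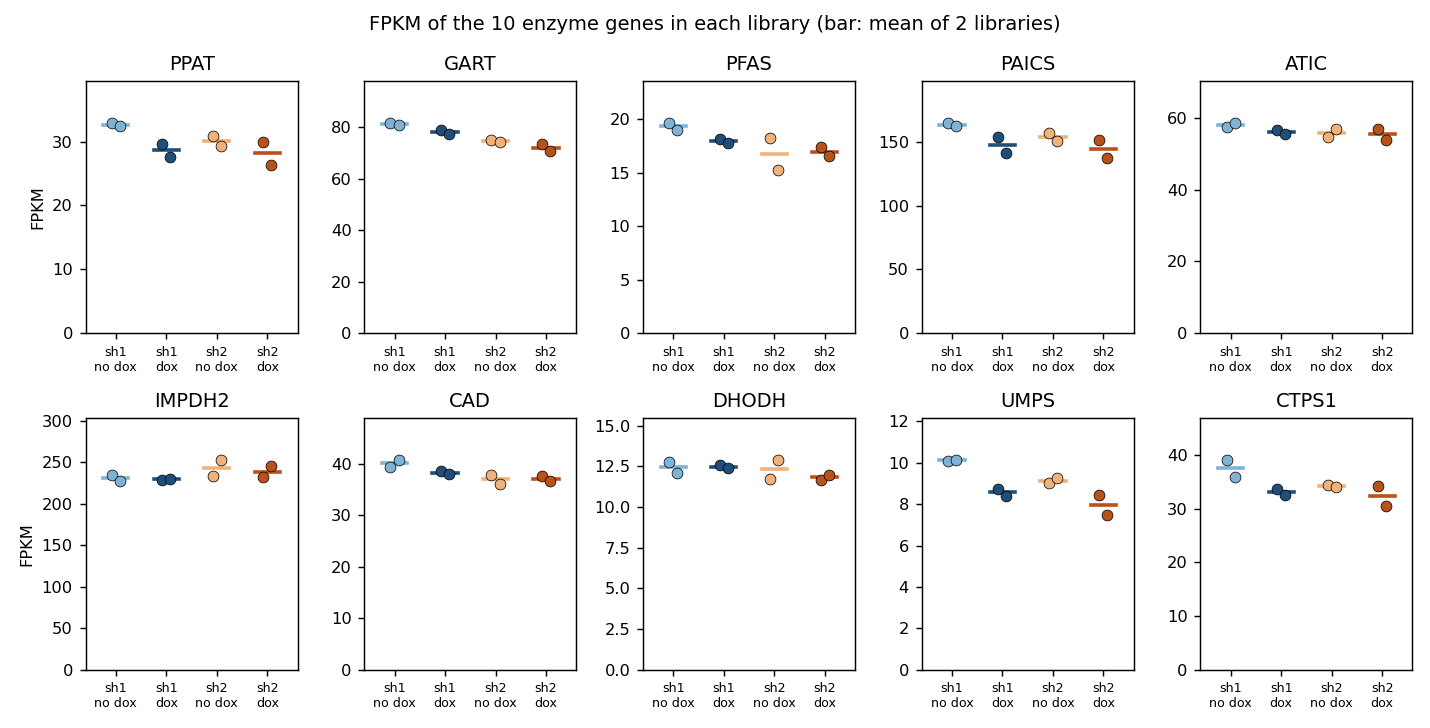
FPKM (vertical axes, from 0) of the 10 enzyme genes in each of the 8 libraries, grouped by line and dox; points are libraries and bars are means of 2. The dox libraries of UMPS (7.5 to 8.73 FPKM) lie below its no-dox libraries (9.02 to 10.2 FPKM), while the groups of IMPDH2, ATIC and DHODH overlap.

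The main question was whether the enzymes' messages differed when the HOXB8 hairpin was induced. Averaged over both lines, UMPS was the only one of the 10 that passed the test: it fell, 0 rose and 9 did not pass (limma on log2(FPKM + 1), Benjamini-Hochberg adjusted p under 0.05 over 11712 tested genes). Of all tested genes 6.2% were called lower and 10.1% higher in the same comparison, so 1 of 10 is near the background. At an unadjusted p under 0.05 there were 4 of the 10, UMPS, PPAT, PAICS and CTPS1, against 32.2% of all tested genes. All 10 estimates were below 0, with a median log2 change of -0.05 and a range of -0.20 to -0.02; over all tested genes the median was 0.02 and 42.9% were below 0. The signs of PFAS, IMPDH2 and DHODH turned when single libraries were left out.

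UMPS (Entrez identifier 7372), the last enzyme on the way to UMP, read 10.1 and 10.2 FPKM in sh1 without dox and 8.73 and 8.42 FPKM with it. In sh2 it read 9.02 and 9.27 FPKM without dox and 8.44 and 7.5 FPKM with it. All 4 dox libraries were below all 4 no-dox libraries, although the lowest no-dox value, 9.02 FPKM in sh2, was close to the highest dox value, 8.73 FPKM in sh1. The mean went from 9.64 ± 0.578 to 8.27 ± 0.534 FPKM (SD, n = 4 per state), which is a change of -14.2% (log2 change -0.20, SE 0.05, 95% interval -0.30 to -0.10, limma adjusted p = 0.0159). With the line ignored, here and below, the two-sided exact permutation p of 4 against 4 libraries was 0.0286, the smallest such a test can give. It was 1 of 10 such tests, which were not adjusted. UMPS was the 1 gene of the 10 without overlap between the states, where 6.87% of all tested genes had their dox libraries wholly below. That count of 1 was 2 without sh2 dox repeat 1, 2 without sh2 no-dox repeat 1 and 5 without sh2 no-dox repeat 2. Of the 11712 genes, 1048, 954 and 1143 did so in the same order (checks chosen after seeing the data). The call of UMPS ended without sh1 dox repeat 2 (adjusted p = 0.0575), without sh1 no-dox repeat 1 (0.0561), without sh1 no-dox repeat 2 (0.05004) or without sh2 no-dox repeat 2 (0.0554), and with no filter on low values (0.0503).

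PPAT (Entrez identifier 5471) and PAICS (Entrez identifier 10606), the pair that shares a promoter region, gave estimates of like size that missed the threshold. PPAT read 32.9 and 32.4 FPKM in sh1 without dox and 29.6 and 27.6 FPKM with it, and 30.9 and 29.3 FPKM in sh2 without dox and 30 and 26.4 FPKM with it. The sh1 groups of PPAT did not overlap and the sh2 groups did. Its log2 change was -0.14 (SE 0.04, 95% interval -0.24 to -0.04, adjusted p = 0.0571; exact permutation p = 0.0857, n = 4 per state).

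PAICS read 165 and 163 FPKM in sh1 without dox and 155 and 142 FPKM with it, and 157 and 151 FPKM in sh2 without dox and 152 and 138 FPKM with it. As for PPAT, the groups of PAICS were apart in sh1 and overlapped in sh2. Its log2 change was -0.12 (SE 0.04, 95% interval -0.21 to -0.03, adjusted p = 0.0636; exact permutation p = 0.0857, n = 4 per state). RefSeq lists 7 PAICS and 2 PPAT pseudogenes by name, of which 0 have rows in the table. The spans of both genes, from first to last annotated base with introns, overlap by 25109 bases on opposite strands. Of the annotated PAICS starts, only that of the window at chr4:56410257-56410556 lies inside the PPAT span. The start in the window shown above lies outside it. How much of the overlap lies in exons was not computed. The library protocol in the labels does not mention strand, so reads from any shared exon stretch cannot be told apart, and the part of the overlap in the likeness of the pair was not tested.

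CTPS1 (Entrez identifier 1503), the CTP synthase, read 39.2 and 35.9 FPKM in sh1 without dox and 33.7 and 32.6 FPKM with it, and 34.5 and 34.1 FPKM in sh2 without dox and 34.3 and 30.5 FPKM with it. Here too the sh1 groups were apart, and 1 sh2 dox library lay between the sh2 no-dox libraries. The sh1 groups of UMPS, GART, PFAS, CAD and ATIC were apart as well. How many of all tested genes were apart in sh1 alone was not counted, so no reading about the members is drawn from these splits. The log2 change of CTPS1 was -0.13 (SE 0.04, 95% interval -0.22 to -0.03, adjusted p = 0.0685; exact permutation p = 0.0571, n = 4 per state). PPAT, PAICS and CTPS1 passed together with UMPS when libraries were rescaled with TMM factors, so that 4 of the 10 were called lower, and also without sh2 dox repeat 1, where calls over all genes rose from 1906 to 2356 of 11712. With the stricter filter of a mean of 5 FPKM PPAT passed beside UMPS, and without sh1 dox repeat 1 PAICS did. TMM factors also moved the calls over all genes, from 1180 higher and 726 lower to 878 higher and 1016 lower; with quantile normalization they were 923 higher and 912 lower.

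The other 6 enzymes showed estimates between -0.05 and -0.02, and their intervals limit how large a change could be. GART (Entrez identifier 2618) read 81.6 and 81 FPKM in sh1 without dox and 79 and 77.4 FPKM with it, and 75.1 and 74.1 FPKM in sh2 without dox and 73.3 and 70.6 FPKM with it. Within each line its dox libraries were below its no-dox libraries, but the difference was small (log2 change -0.05, 95% interval -0.11 to 0.01, adjusted p = 0.213). With UMPS, it was 1 of 2 members apart within both lines, where 11.2% of all tested genes were apart in the lower direction.

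CAD (Entrez identifier 790), which opens the pyrimidine route, ranged from 36.1 to 40.8 FPKM without dox and from 36.6 to 38.6 FPKM with it, so the dox libraries lay inside the no-dox range (log2 change -0.03, 95% interval -0.10 to 0.04, adjusted p = 0.556). Within sh1 the CAD groups were apart (dox 38.6 and 37.9 FPKM, no-dox 39.4 and 40.8 FPKM), and within sh2 they overlapped. PFAS (Entrez identifier 5198) ranged from 15.2 to 19.7 FPKM without dox and from 16.5 to 18.2 FPKM with it (log2 change -0.04, 95% interval -0.15 to 0.08, adjusted p = 0.652). Within sh1 the PFAS groups were apart (dox 18.2 and 17.8 FPKM, no-dox 19.7 and 19.1 FPKM), and within sh2 they overlapped. Its no-dox range was set by sh2 no-dox repeat 2 at 15.2 FPKM, the lowest PFAS value of the 8. Without sh2 no-dox repeat 2 its log2 change was -0.10 (adjusted p = 0.151), and without sh2 no-dox repeat 1 it was 0.02 (adjusted p = 0.751).

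ATIC (Entrez identifier 471), IMPDH2 (Entrez identifier 3615) and DHODH (Entrez identifier 1723) had overlapping states. ATIC ranged from 54.6 to 58.6 FPKM without dox and from 53.9 to 56.9 FPKM with it (log2 change -0.03, 95% interval -0.10 to 0.04, adjusted p = 0.553). Within sh1 the ATIC groups were apart (dox 56.6 and 55.5 FPKM, no-dox 57.4 and 58.6 FPKM), and within sh2 they overlapped. IMPDH2 ranged from 227 to 253 FPKM without dox and from 229 to 245 FPKM with it (log2 change -0.02, 95% interval -0.09 to 0.05, adjusted p = 0.744). The lowest and the highest IMPDH2 values were both in no-dox libraries. DHODH, the mitochondrial step, ranged from 11.7 to 12.9 FPKM without dox and from 11.7 to 12.6 FPKM with it (log2 change -0.02, 95% interval -0.12 to 0.07, adjusted p = 0.746).

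**Figure D2:**
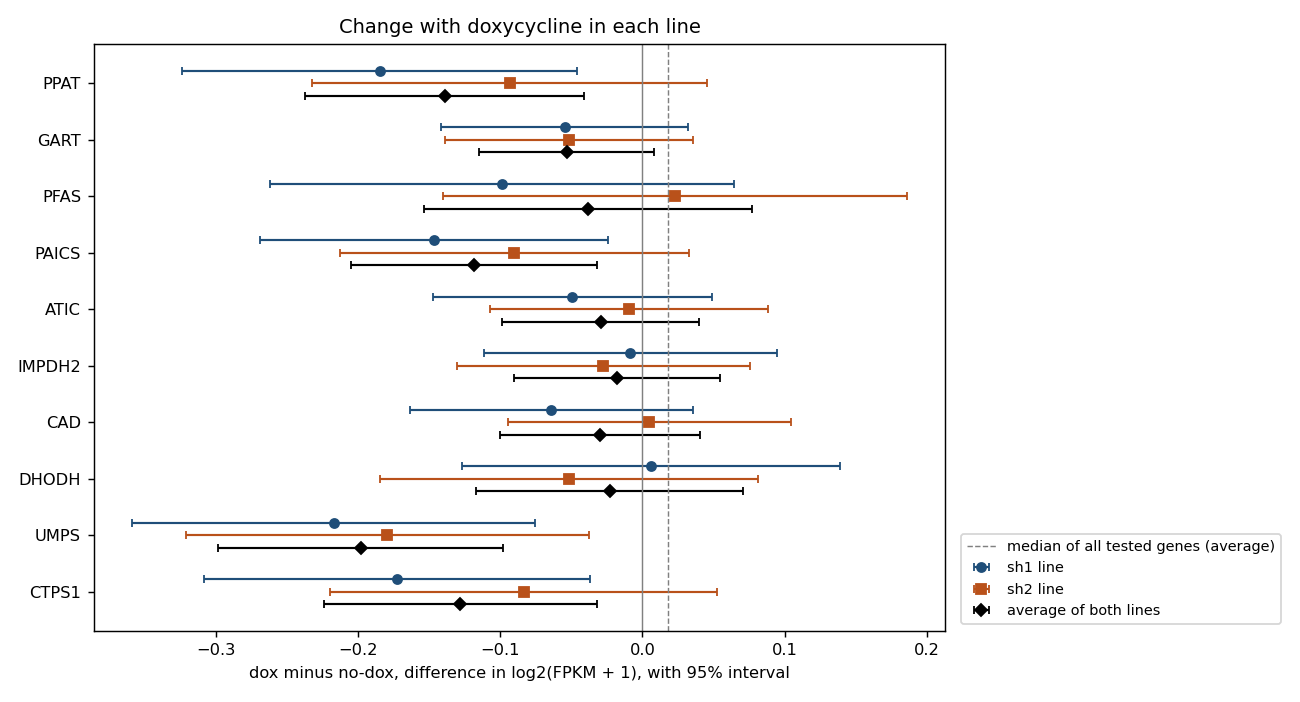
Difference between dox and no-dox in log2(FPKM + 1) (horizontal axis) for each enzyme, in the sh1 line, the sh2 line and averaged, with 95% intervals; the dashed line is the median of all tested genes for the average (0.02). The averaged intervals of UMPS, PPAT, PAICS and CTPS1 lie below 0, and those of the other 6 include it.

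In each line taken alone, 0 of the 10 were called by limma; 9 estimates were below 0 in sh1, against 41.5% of all tested genes, and 8 in sh2, against 46.9%. In sh1, 2.56% of tested genes were called lower and 3.71% higher, and in sh2 1.15% lower and 1.38% higher. At an unadjusted p under 0.05 there were 4 members in sh1, against 24.6% of tested genes, and 1 in sh2, against 18.7%. UMPS had the lowest estimate in both lines, -0.22 in sh1 (SE 0.06, adjusted p = 0.0705) and -0.18 in sh2 (SE 0.06, adjusted p = 0.165). PPAT read -0.18 in sh1 and -0.09 in sh2, CTPS1 -0.17 and -0.08, and PAICS -0.15 and -0.09. Without sh2 dox repeat 1 or without sh2 dox repeat 2, which enter the sh1 test only through the shared spread, PPAT and UMPS passed in sh1.

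The difference between the lines' dox effects was tested directly, and 0 of the 10 passed, as for 0% of all tested genes. At an unadjusted p under 0.05 there were 0 members and 566 of 11712 genes. The widest estimate was that of PFAS, 0.12 (sh2 minus sh1, 95% interval -0.11 to 0.35, adjusted p = 0.992), and for UMPS it was 0.04 (95% interval -0.16 to 0.24). The intervals do not exclude differences between the lines as large as the averaged effects themselves.

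Before dox, 9 of the 10 enzymes had a lower estimate in the sh2 line than in the sh1 line, and IMPDH2 a higher one (0.07). By limma 0 of the 10 passed, where 0.623% of tested genes were called lower and 0.828% higher in sh2. At an unadjusted p under 0.05 there were GART, PFAS and CAD, 3 of 10, against 18.1% of tested genes. The median log2 difference of the 10 was -0.11, against 0.02 over all tested genes. GART had 75.1 and 74.1 FPKM in sh2 and 81.6 and 81 FPKM in sh1, with no overlap (log2 difference -0.12, SE 0.04, adjusted p = 0.141). CAD had 37.9 and 36.1 FPKM in sh2 and 39.4 and 40.8 FPKM in sh1 (log2 difference -0.11, SE 0.04, adjusted p = 0.219). PFAS had 18.3 and 15.2 FPKM in sh2 and 19.7 and 19.1 FPKM in sh1 (log2 difference -0.20, SE 0.07, adjusted p = 0.183). MYC (Entrez identifier 4609), read as 178 and 186 FPKM in sh1 and 151 and 153 FPKM in sh2 before dox, was called lower in sh2 (-0.26, adjusted p = 0.0315). With dox MYC had a log2 change of -0.18 averaged over the lines (limma adjusted p = 0.00691; exact permutation p = 0.0857, n = 4 per state). It was -0.26 in sh1 (adjusted p = 0.0147) and -0.10 in sh2 (adjusted p = 0.278), and the difference between the lines did not pass (adjusted p = 0.992); the part of MYC in the enzymes' values was not tested.

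Across the 8 libraries the sh1 no-dox pair was highest and sh2 dox repeat 2 lowest for most of the enzymes. Of the 10, 5 were highest in sh1 no-dox repeat 1 and 3 in sh1 no-dox repeat 2, where 12.8% and 8.6% of all tested genes had their highest value. The lowest value was in sh2 dox repeat 2 for 6 of the 10, PPAT, GART, PAICS, ATIC, UMPS and CTPS1, where 17.2% of all tested genes had theirs. IMPDH2 went the other way, with its lowest value in sh1 no-dox repeat 2. IMPDH2 and DHODH were highest in sh2 no-dox repeat 2, where 7.74% of all tested genes had their highest value. DHODH was lowest in sh2 dox repeat 1. The summed FPKM of the 10 was 694 and 680 in sh1 without dox, 661 and 642 in sh1 with it, 664 and 672 in sh2 without it, and 654 and 637 in sh2 with it.

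The profiles were compared as the root mean square distance between values of log2(FPKM + 1) over the 8 libraries, each gene centred on its own mean. PPAT and PAICS were each other's nearest enzyme, at a distance of 0.02, and 4 of 11712 tested genes were nearer to either. CTPS1 and UMPS were nearest to PPAT, at 0.03 and 0.05, with 18 and 93 tested genes nearer. CAD and GART were nearest to each other (0.03), with 150 and 112 tested genes nearer. From the median profile of the 10, GART (0.03) was least far and IMPDH2 (0.10) farthest, while the median tested gene was at 0.10. The 10 set this median profile themselves, so their distances and those of other genes are not like for like. The 6 other genes with the nearest profile to that median were NPLOC4, SMPD4, COPS3, MRPS23, HN1L and UCK2, at distances of 0.01 to 0.02. UCK2, a uridine and cytidine kinase of pyrimidine salvage, was also in a list of pathway genes (averaged log2 change -0.08, adjusted p = 0.116).

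**Figure D3:**
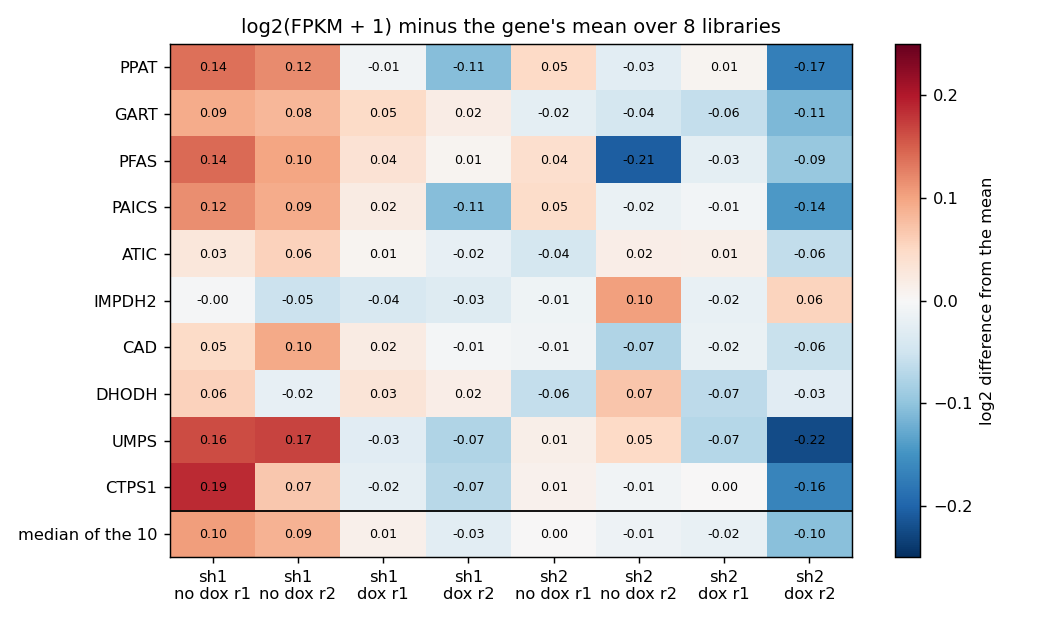
Heat map of log2(FPKM + 1) minus each gene's mean over the 8 libraries (columns, r for repeat) for the 10 enzymes and their median (last line). The sh1 no-dox libraries are at 0.10 and 0.09 in the median, and sh2 dox repeat 2 is at -0.10. In sh2 no-dox repeat 2, IMPDH2 is at 0.10, DHODH at 0.07, UMPS at 0.05 and ATIC at 0.02, and the other enzymes are below 0.

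The remaining genes of nucleotide metabolism were described from lists written from general knowledge, for the effect averaged over lines. Beside the counts of each list below stand the shares of all tested genes. Of these, 6.2% were called lower, 10.1% were called higher and 32.2% had an unadjusted p under 0.05 by limma. No list was tested against these shares. Of 9 further genes of purine synthesis, 2 fell, 0 rose by limma and 7 did not pass, with a median log2 change of -0.05. The range was -0.16 to 0.26, 6 were below 0 and 3 had an unadjusted p under 0.05. The highest estimate was that of ADSSL1 (0.26, limma adjusted p = 0.156), at 2.3 FPKM without dox and 3 FPKM with it. GMPS, which makes GMP after IMPDH2, fell (-0.16, adjusted p = 0.0223), as did PRPSAP1, a partner of the ribose phosphate synthetases (-0.15, adjusted p = 0.0333). IMPDH1, the sister of IMPDH2, was at -0.09 (adjusted p = 0.051). The ribose phosphate synthetases PRPS1 (-0.10) and PRPS2 (-0.05) did not pass, nor did ADSL (0.03) and ADSS (0.02).

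Of 7 genes of pyrimidine nucleotide phosphorylation and CTP synthesis, 1 rose, 1 fell and 5 did not pass (median 0.07). The nucleoside diphosphate kinase gene NME3 rose (0.19, adjusted p = 0.00262) and NME1 fell (-0.13, adjusted p = 0.0351), while NME2 was at 0.10 (adjusted p = 0.0531). NME1 and NME2 are close neighbours of similar sequence, so their split is uncertain. CTPS2, the second CTP synthase, was at -0.01 and at 6.39 FPKM without dox, below CTPS1.

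None of 9 genes of deoxynucleotide synthesis was called by limma (0 higher, 0 lower, median 0.02, 1 with an unadjusted p under 0.05). The nearest to the threshold were the dCTP pyrophosphatase gene DCTPP1 (-0.10, adjusted p = 0.14), the thymidylate kinase gene DTYMK (0.08, adjusted p = 0.252) and the deaminase gene DCTD (0.04, adjusted p = 0.397). The ribonucleotide reductase gene RRM2 (-0.04) and the thymidylate synthase gene TYMS (-0.02) did not pass either.

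Of 14 salvage genes, 1 rose, 1 fell and 12 did not pass (median -0.03). MTAP, which recovers adenine from methylthioadenosine, fell from 47.2 to 38.1 FPKM (log2 change -0.30, adjusted p = 0.00174). TK2, the mitochondrial thymidine kinase gene, rose from 4.6 to 5.75 FPKM (0.27, adjusted p = 0.00403). PNP was at -0.11 (adjusted p = 0.0614). Of 10 purine nucleotide kinases 6 were tested, of which the mitochondrial AK4 fell (-0.25, adjusted p = 0.00576), GUK1, the guanylate kinase, rose (0.11, adjusted p = 0.033) and 4 did not pass. AK6, whose locus overlaps that of TAF9, was at -0.08 (adjusted p = 0.3).

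Of 19 breakdown genes 13 were tested, with 3 higher, 1 lower and 9 not past the threshold (median 0.02). The uridine phosphorylase gene UPP1 (0.27, adjusted p = 0.0215) and the nucleotidase genes NT5C (0.15, adjusted p = 0.0257) and NT5M (0.26, adjusted p = 0.0458) rose, and the guanine deaminase gene GDA fell (-0.20, adjusted p = 0.0291). Of 7 nucleoside transporter genes 4 were tested, and SLC29A4 rose (0.12, adjusted p = 0.0459), while SLC29A2 (0.13, adjusted p = 0.06) and SLC29A3 (0.13, adjusted p = 0.224) did not pass.

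Other lists held genes of metabolism around the purine precursors, which either supply or use them. Of 15 genes of one-carbon and glycine supply 12 were tested, with 4 higher, 1 lower and 7 not past the threshold (median 0.10). The serine synthesis genes PHGDH (0.67, adjusted p = 8.74e-04), PSAT1 (0.53, adjusted p = 2.09e-04) and PSPH (0.13, adjusted p = 0.0302) rose, as did the mitochondrial folate enzyme gene MTHFD2 (0.18, adjusted p = 0.00287). The mitochondrial folate carrier gene SLC25A32 fell (-0.18, adjusted p = 0.0172), and MTHFD1, the cytosolic enzyme that makes the formyl donor for GART and ATIC, was at -0.05 (adjusted p = 0.311). Of 15 genes of nitrogen, aspartate and ribose supply 14 were tested, with 3 higher, 0 lower by limma and 11 not past the threshold (median 0.01; 5 with an unadjusted p under 0.05). The asparagine synthetase gene ASNS (0.83, adjusted p = 7.04e-04), the glutamine transporter gene SLC1A5 (0.26, adjusted p = 0.00513) and the transketolase gene TKT (0.13, adjusted p = 0.0197) rose.

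**Figure D4:**
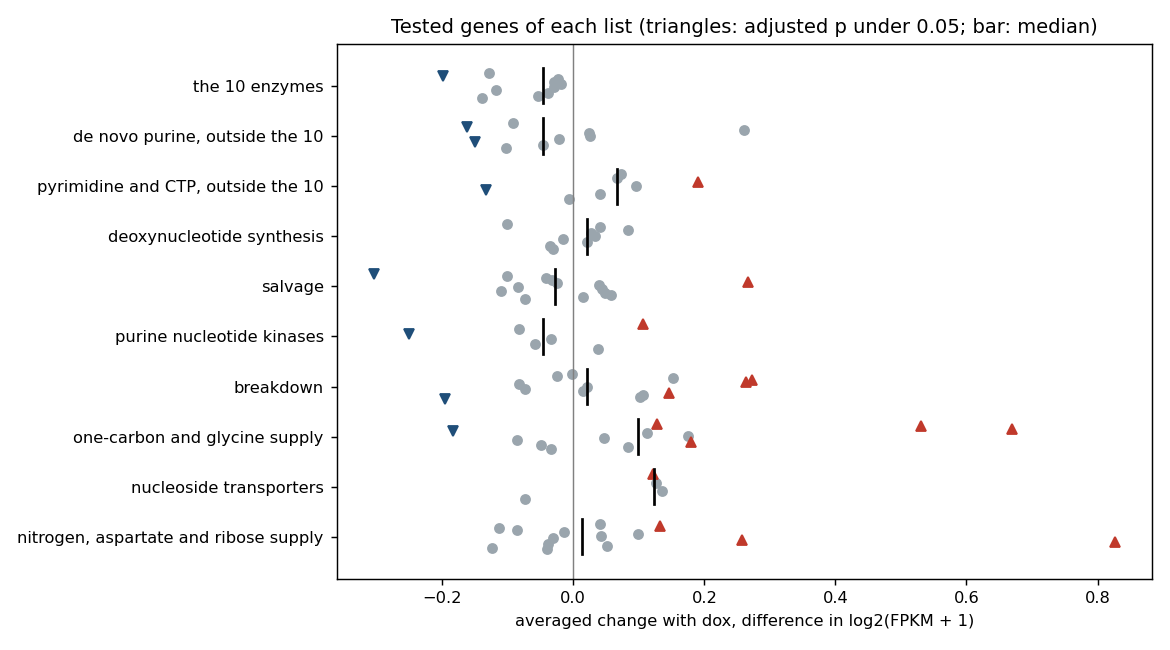
Averaged change with dox in log2(FPKM + 1) (horizontal axis) of each tested gene in the 10 enzymes and 9 lists of nucleotide metabolism; triangles passed the test and bars are medians. The median of the 10 enzymes (-0.05) is near that of the other purine synthesis genes (-0.05), while one-carbon supply (0.10) holds PHGDH at 0.67 and PSAT1 at 0.53.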

How the data were processed

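PolyA-selected RNA of 8 HCT116 libraries was measured. The deposited values are FPKM per the file headers, a unit set by the authors relative to transcript length and mapped fragments; HISAT and Bowtie2 with build hg19 are named in the submitters' processing notes, and what each tool did, its version, and the program and gene models behind the FPKM were not given in the sources used here. The table writes sh3 where the labels write sh2, which was taken as sh2 by elimination. The labels' source names call all samples induced; groups follow the titles. In 13 low genes whose values were whole steps (tolerance 10%), no library's step differed, but totals of reads cannot be recovered.

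Of the genes, 11712 averaged 1 FPKM or more and were tested; 5454 were not. Tests were made on log2(FPKM + 1), which understates changes of low genes, in limma 3.58.1 under R 4.3.3. The model fitted each group's mean from the 8 libraries together, leaving 4 residual degrees of freedom, with trended moderation. Tests were two-sided, with p-values adjusted by Benjamini-Hochberg across the tested genes, for 5 comparisons that share libraries. Exact permutation tests ignored the line (scipy 1.17.1). Scripts were tested on simulated data. Alternatives were the pseudocount, the filter, quantile and TMM scaling (trimmed by 30% and 5%, without weights), the moderation, a term for the line, the replicate block and leaving out each library. Named list genes are the 3 of smallest p, and those called against the direction of most of their list. PRPS1, PRPS2, ADSL, ADSS, ADSSL1, CTPS2, RRM2, TYMS, MTHFD1, PSPH and NT5M lie outside that rule and were chosen after their values were seen. Also named are HOXB8, MYC and the 6 genes nearest in profile. Members, lists and motifs were chosen with earlier results of these data known. Figures used matplotlib 3.10.9.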

Additional observations from a re-analysis of the deposited data

Results flagged for a closer look

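None of the 10 enzymes met a rule for a closer look. In the 20 sets of 4 libraries with or without dox, 0 had a library apart by Dixon's criterion, where chance gives about 1 in 20, and 0 of the 10 differences between the lines passed limma's test (0 also at an unadjusted p under 0.05).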

How the results depend on the processing

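The count of enzymes called for the averaged effect, 1 as reported, was 0 when low genes were kept, 2 with a filter of 5 FPKM, 4 with TMM factors and 0 to 4 when single libraries were left out. In sh1 it was 0 as reported and 0 to 2 without single libraries; in sh2, for the difference and for the untreated lines it was 0 under each alternative run. The count of enzymes with all dox libraries below all no-dox libraries, 1 as reported, was 2 with quantile normalization, 2 with TMM factors and 1 to 5 without single libraries. The same count over the 11712 tested genes rose too, from 805 to 1028, 1074 and 906 to 1143 in the same order. Over all genes, calls for the averaged effect went from 1906 to 1021 when low genes were kept, 1074 with no term for the line and 851 to 2356 without single libraries. In sh1 they went from 734 to 155 when low genes were kept, 379 without the trend and 99 to 1089 without single libraries. In sh2 they went from 297 to 35, 90 and 17 to 370 in the same order, and between untreated lines from 170 to 23, 67 and 16 to 361. With the replicate block 4 enzymes were called for the averaged effect, UMPS, PPAT (adjusted p = 0.0197), PAICS (0.0164) and CTPS1 (0.0321), and 2 in sh1, PPAT (0.0408) and PAICS (0.0430). Over all genes the block gave 2477 calls for the averaged effect, 1206 in sh1 and 583 in sh2. The labels do not say that numbers pair the libraries, and same-numbered deviations correlated at 0.07 in sh1 and 0.16 in sh2 across genes. Of 520 single values of the enzymes under alternatives, 479 kept direction and side of the threshold and 19 changed sign, all of them uncalled. CAD in sh2 read -0.0079 with TMM factors, and DHODH in sh1 -0.0164 with quantile normalization and -0.0200 with TMM factors. Without single libraries, averaged log2 changes were -0.10 to 0.0242 for PFAS, -0.0460 to 0.0101 for IMPDH2 and -0.0552 to 0.0094 for DHODH. In sh1 they were -0.0345 to 0.0175 for IMPDH2 and -0.0328 to 0.0445 for DHODH. In sh2 they were -0.10 to 0.15 for PFAS, -0.0475 to 0.0282 for ATIC, -0.0836 to 0.0286 for IMPDH2, -0.0283 to 0.0379 for CAD and -0.12 to 0.0129 for DHODH. The causes were not tested. With 2 libraries per group and depth unknown, precision rests on the spread between libraries.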
